A study of Homo sapiens with 14 samples.

Results

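The H/ACA box small nucleolar RNAs of IMR90 cells were described in 6 RNA libraries of a larger series of 14. Members were the gene symbols made of SNORA, a number and at most 1 further letter that had at least 60 counts summed over the 2 libraries each of ICM (replicates 1 and 2), siSRRM2 and siBANF1. This gave 73 members of 178 SNORA symbols, among 54628 symbols in all. Another 59 SNORA symbols had 1 to 59 counts and 46 had none. The abundance in these 6 libraries chose the members, so their being abundant there is a description and no result. Just inside the limit lay SNORA63D and SNORA51 with 61 counts each and SNORA66 with 60, and just outside lay SNORA60 and SNORA55 with 59 each and SNORA22C with 57.

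IMR90 is an established line of human lung fibroblasts. All 6 libraries came from cells treated with 10 µM inflachromene (ICM), a compound that targets HMGB1 and HMGB2, architectural proteins of chromatin, and was given for up to 6 days to make the cells senescent. The ICM group had no knockdown, and the groups labelled siSRRM2 and siBANF1 had in addition an siRNA against SRRM2, a scaffold protein of nuclear speckles, or against BANF1, a small DNA-binding protein of the nuclear envelope and chromatin. The other 8 libraries were untreated cells (WT), untreated cells with an siRNA against HMGB2 (siHMGB2), ICM replicates 3 and 4, and ICM-treated cells with an siRNA against the chromatin architecture factor CTCF (siCTCF), with 2 libraries each. The titles of all 14 libraries name IMR90, but the cell line entries of ICM 3, ICM 4 and the 2 siCTCF libraries read IMR91, IMR92, IMR93 and IMR94. Cell isolates I79 and I83 at passage 5 were used, and the labels do not tie an isolate to a library. Nothing in the labels says that replicates came from separate cultures, so p-values measure the spread between these libraries, which may be technical. In the fits below, the estimate of this spread shares information across all genes. SEs and p-values of members thus draw also on the spread of other genes.

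H/ACA snoRNAs are short nuclear RNAs that fold into a pair of hairpins separated by a single-stranded H box and followed by an ACA triplet near the 3′ end. Most are cut out of introns of host genes during splicing and are packed with dyskerin (DKC1), NHP2, NOP10 and GAR1 into particles that convert chosen uridines of ribosomal RNA to pseudouridine. A few, such as SNORA73A and SNORA73B, are better known for a part in processing the precursor of ribosomal RNA.

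The sequences of 8 members show this architecture in the RNAs on which the results turn. They are GENCODE v29 transcripts on GRCh38, written 5′ to 3′ in DNA letters. Capitals mark the match to the H box pattern ANANNA nearest the middle and, where one is present, an ACA placed 3 bases from the 3′ end. The marked H box reads AAATAA in SNORA73A and SNORA63, AAAGCA in SNORA48 and AAAAAA in SNORA32. The pair SNORA73A (chr1:28507366-28507571, plus strand, in an exon of SNHG3) and SNORA73B (chr1:28508559-28508762, plus strand, in an intron of SNHG3) held most of the SNORA counts. They differed by 14 edits over 206 bases (93.2% identity). Reads that match both equally cannot be assigned to either. The number of such reads was not counted, and the separate levels of the pair are uncertain.
SNORA73A: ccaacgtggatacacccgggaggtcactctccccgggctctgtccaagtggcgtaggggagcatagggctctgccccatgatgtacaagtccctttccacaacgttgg45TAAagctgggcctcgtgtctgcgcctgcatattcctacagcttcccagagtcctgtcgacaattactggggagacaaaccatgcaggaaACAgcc
SNORA73B: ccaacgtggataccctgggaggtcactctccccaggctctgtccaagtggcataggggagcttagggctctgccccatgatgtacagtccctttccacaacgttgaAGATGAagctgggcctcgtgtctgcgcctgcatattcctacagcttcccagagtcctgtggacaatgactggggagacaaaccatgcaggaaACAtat

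SNORA53 is shown as the longest member (chr12:98599635-98599883, plus strand, overlapping an annotated exon of SLC25A3). SNORA63 (chr3:186787300-186787431, plus strand, EIF4A2) and SNORA48 (chr17:7574713-7574847, plus strand, EIF4A1) are the most abundant of the usual length, and both lie in annotated exons of genes for translation initiation factors. No ACA stood exactly 3 bases from the annotated end of SNORA53 or SNORA63.
SNORA53: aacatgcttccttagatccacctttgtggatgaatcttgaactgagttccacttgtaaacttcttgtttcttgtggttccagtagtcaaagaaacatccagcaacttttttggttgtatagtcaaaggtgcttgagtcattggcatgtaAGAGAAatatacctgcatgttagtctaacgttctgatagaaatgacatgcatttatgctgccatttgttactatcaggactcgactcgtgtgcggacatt
SNORA63: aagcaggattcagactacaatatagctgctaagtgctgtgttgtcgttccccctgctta45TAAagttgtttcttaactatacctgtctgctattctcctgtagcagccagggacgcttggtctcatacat
SNORA48: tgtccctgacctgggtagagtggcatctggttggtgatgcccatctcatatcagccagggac45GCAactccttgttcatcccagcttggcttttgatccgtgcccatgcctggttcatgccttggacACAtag

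SNORA5C (chr7:45104906-45105042, minus strand) and SNORA5A (chr7:45104349-45104482, minus strand) are shown because both lie in introns of 1 host, TBRG4, and their values are set side by side. Their identity was 67.9%. SNORA32 (chr11:93730979-93731099, minus strand, in an annotated exon of TAF1D) is shown because it differed most between ICM replicates.
SNORA5C: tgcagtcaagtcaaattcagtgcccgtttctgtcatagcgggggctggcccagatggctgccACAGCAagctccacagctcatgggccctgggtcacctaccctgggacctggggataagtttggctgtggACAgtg
SNORA5A: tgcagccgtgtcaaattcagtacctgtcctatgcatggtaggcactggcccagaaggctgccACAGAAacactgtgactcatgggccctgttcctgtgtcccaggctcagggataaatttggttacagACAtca
SNORA32: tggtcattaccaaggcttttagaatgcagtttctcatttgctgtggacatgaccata4545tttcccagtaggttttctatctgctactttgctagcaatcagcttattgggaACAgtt

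Of the 73 members, 69 had a GENCODE v29 entry. An ACA exactly 3 bases from the annotated 3′ end was found in 49 of these 69 (71.0%) and in 4 of 278 C/D box snoRNA genes of GENCODE (1.44%). A match to ANANNA in the central of 3 equal sections was found in 67 of 69 (97.1%) and in 152 of 278 C/D genes (54.7%). The size of that section follows the length of the gene, and lengths were not matched between these sets. Over 2346 pairs of members the median identity was 47.6%, and 9 pairs reached 80%. After SNORA73A and SNORA73B, the closest were SNORA80A with SNORA80B (91.9%) and SNORA71D with SNORA71B (90.3%), whose separate counts are likewise uncertain. A host on the same strand was found for 68 members, at 48 distinct hosts. In 32 cases the member overlapped an annotated exon of the host, and in 36 it lay in introns only. Ribosomal protein genes hosted 17 members and SNHG genes (noncoding host genes of snoRNAs) 12. TAF1D, a subunit of the RNA polymerase I selectivity factor, hosted 6, and EIF4A2 and SNHG17 hosted 4 each.

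The libraries did not behave as 3 clean pairs. Pairs of libraries were compared over the genes with at least 50 counts summed over the pair (13936 to 14725 genes, and 46 to 55 members). Over these genes the SD of log2 ratios was 1.37 between ICM 1 and ICM 2 and 1.41 between siBANF1 1 and siBANF1 2. It was 0.22 between the 2 siSRRM2 libraries. ICM 2 and siBANF1 2 lay much closer to each other (0.31) than either lay to its own replicate, and ICM 1 and siBANF1 1 were also closer (0.74). The chi-square of counts per degree of freedom was 5.45 between the siSRRM2 libraries and 1040 within both other pairs, against 1 for sampling noise alone. Over members the same SDs were 0.57, 0.70 and 0.43 within ICM, siBANF1 and siSRRM2, and 0.36 between ICM 2 and siBANF1 2. Scaled to 1000000 gene counts of a library (CPM), SRRM2 had 238 and 112 in ICM, 76.1 and 76.4 in siSRRM2, and 59 and 17.0 in siBANF1. BANF1 had 13.5 and 32.7 in ICM, 34.2 and 33.3 in siSRRM2, and 17.0 and 36.7 in siBANF1. Each library labelled siBANF1 thus had more BANF1 than the same-numbered ICM library and less SRRM2 than the siSRRM2 libraries, and the names of the deposited files carry these 2 knockdowns the other way round. Directions below belong to libraries as labelled. Fibroblast markers summed to 3937 to 11084 CPM in the 6 libraries, with none of the 8 markers under 1 CPM throughout. The 5 endothelial markers summed to 0.260 to 6.72 CPM, with PECAM1 and CDH5 under 1 in all 6. Of 6 epithelial markers, which summed to 33.8 to 176 CPM, EPCAM, KRT19, CDH1 and SFTPC stayed under 1, and KRT18 had 17.7 to 166. Of 5 immune markers (56.4 to 88.9 CPM in sum) only the macrophage marker CD68 exceeded 1, at 56.3 to 88.8. The 4 smooth muscle or pericyte markers summed to 13.5 to 459 CPM, with MYH11 and DES under 1. RGS5, of that list, had 446 CPM in siBANF1 1 and 69.7 in ICM 1 against 7.39 to 11.3 in the other 4 libraries, so it was highest in replicate 1 of the groups whose replicates lay far apart. The part of other cell types in the member values was not tested.

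SNORA RNAs made up a small and fairly even part of the 6 libraries. The 73 members held 98.7% to 99.5% of SNORA counts, and all 73 were counted in each library. SNORA CPM values were 786 and 484 in ICM, 653 and 686 in siSRRM2, and 593 and 744 in siBANF1. The libraries held 39435430 to 58257456 gene counts, of which 23400 to 43323 were SNORA counts. The ICM pair spanned all other values. The mean of siSRRM2 (669 ± 23.9, SD, n = 2) and that of siBANF1 (669 ± 106, n = 2) were 1.05 times that of ICM (635 ± 213, n = 2). The exact 2-sided permutation test gave p = 1 for both, where 2 libraries against 2 cannot go below 0.33.

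C/D box snoRNAs, which guide methylation of ribosomal RNA, were less even. Their SNORD symbols had 7240 and 2187 CPM in ICM, 3688 and 4046 in siSRRM2, and 7182 and 3437 in siBANF1. They were thus highest in replicate 1 of ICM and of siBANF1, whereas SNORA counts were lower in siBANF1 1 than in siBANF1 2. SNORA made up 1.17% to 1.86% of the small RNA classes counted in these libraries, which include SNORD, SCARNA, spliceosomal RNAs and the RNAs of the 7SK, 7SL, RNase P, RNase MRP, telomerase and Y families.

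**Figure D1:**
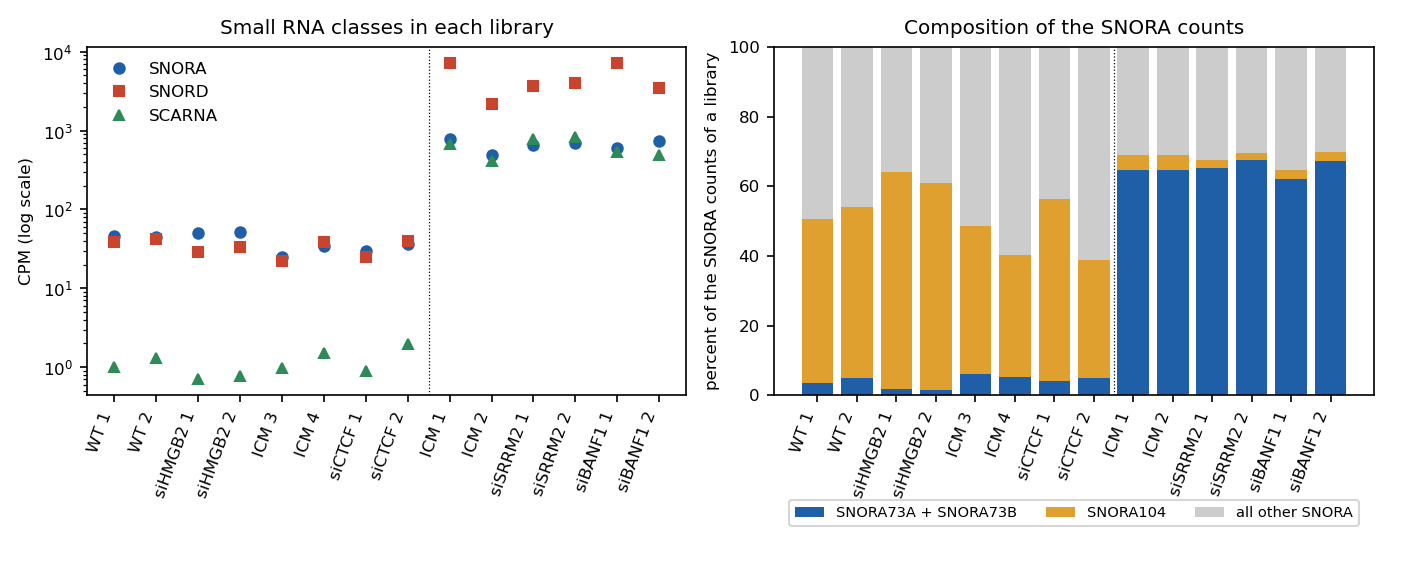
Left, CPM (log axis) of SNORA, SNORD and SCARNA symbols in each of the 14 libraries; right, the percent of each library's SNORA counts held by SNORA73A with SNORA73B, by SNORA104 and by all others. The 6 libraries right of the dotted line have 484 to 786 SNORA CPM and 62.2% to 67.6% in the SNORA73 pair, and the other 8 have 25.2 to 51.5 and 1.46% to 6.15%.

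The SNORA73 pair dominated the members. SNORA73A held 37.1% and 36.1% of SNORA counts in ICM, 37.2% and 37.5% in siSRRM2, and 36.2% and 38.2% in siBANF1. SNORA73B held 27.7% and 28.6%, 27.9% and 30.2%, and 26.0% and 29.2%. Both shares were nearly level across groups and libraries. The pair held 62.2% to 67.6% of the total that shares are taken of, which limits how far its shares can move. Log2 fold changes of the share of SNORA73A and SNORA73B were 0.03 (SE 0.58) and 0.04 (SE 0.58) for siSRRM2 vs ICM. For siBANF1 vs ICM they were 0.02 (SE 0.58) and -0.03 (SE 0.58). With the counts scaled by TMM over all genes they were 0.09 and 0.12 for siSRRM2 vs ICM, and 0.10 and 0.06 for siBANF1 vs ICM. These SEs draw also on the spread of other genes.

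Per 100 bases of annotated length, SNORA73A had 84.3 to 141 CPM over the 6 libraries (median 121) and SNORA73B 67.6 to 106 (median 94.9). SNORA63 and SNORA48 came next, at 18.4 to 29.1 and 15.8 to 27.7, and these ranges overlap almost fully. SNORA104 followed at 9.88 to 24.4, SNORA53 at 5.90 to 13.1 and SNORA74A, an intronic RNA of SNHG4, at 4.17 to 9.13, with overlapping ranges. SNORA70 in RPL10 (3.16 to 6.89), SNORA32 in TAF1D (2.33 to 6.07) and SNORA94 (2.14 to 5.54) could not be ordered among themselves. The 10 members with the highest counts together held 85.5% to 88.0% of SNORA counts, and all other members 11.3% to 13.2%.

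Long members were frequent near the top. A split at 170 bases, chosen after the values were seen, gave 10 members of 177 to 250 bases and 63 of 121 to 154 bases. The long members (SNORA73A, SNORA73B, SNORA53, SNORA74A, SNORA94, SNORA23, SNORA74B, SNORA81, SNORA91 and SNORA92) had a median of 190 counts per 100 bases and library, against 28.9 for the shorter ones. SNORA73A (5749) and SNORA92 (5.10) were the extremes of the long group, and SNORA63 (1110) and SNORA66 (7.52) those of the short. The long members held 71.7% to 78.5% of SNORA counts. How library preparation selected fragments by length is not given in the sources used here, and its part in these levels was not tested.

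**Figure D2:**
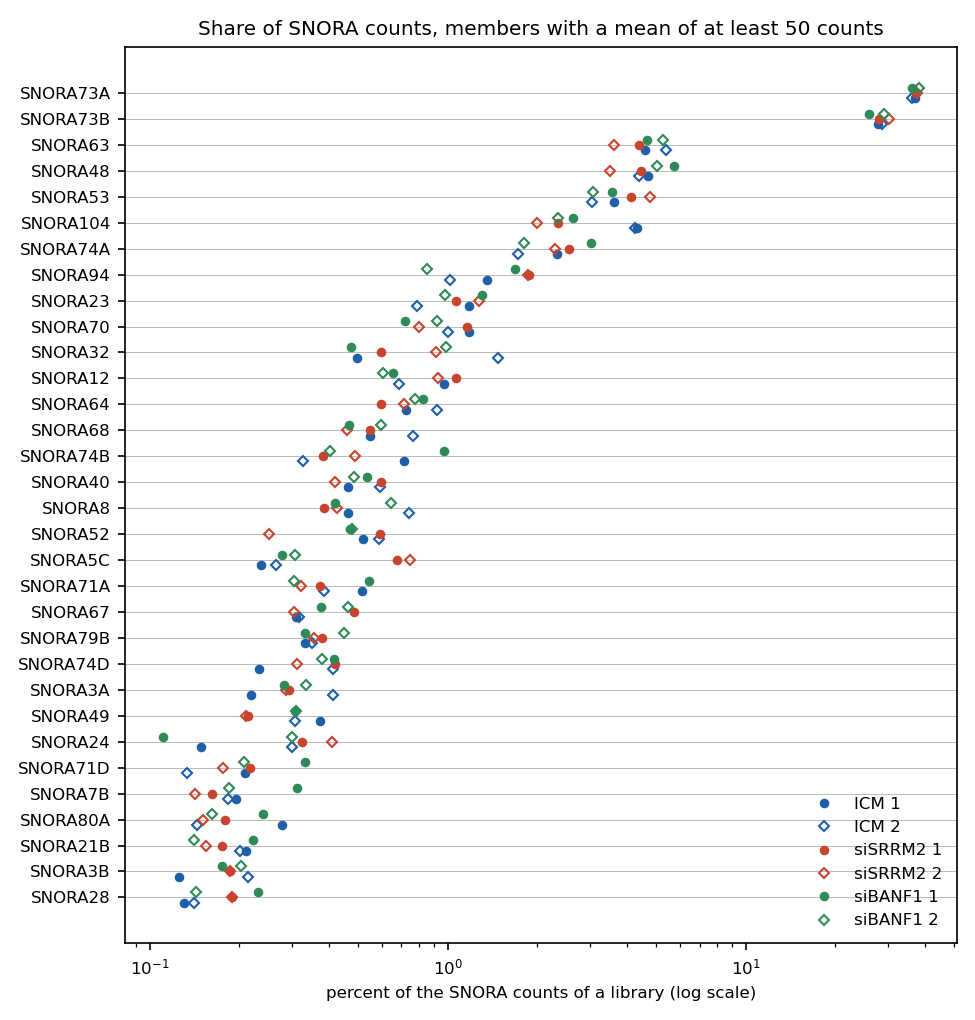
Percent of a library's SNORA counts (log axis) for the 32 members with a mean of at least 50 counts, with 1 symbol for each of the 6 libraries (filled for replicate 1, open for replicate 2). SNORA73A and SNORA73B lie far above the rest, SNORA104 is separated between ICM (4.32% and 4.27%) and the other groups, and SNORA5C is highest in both siSRRM2 libraries.

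Outside the 6 libraries the members were scarce, but unequally so. SNORA CPM values were 25.2 to 51.5 in the other 8 libraries, which included ICM 3 and ICM 4 with the same treatment label (25.2 and 34.8). The labels give these 8 the same extraction and library protocol. SNORD counts stood at 22.1 to 42.2 CPM there and SCARNA counts at 0.70 to 1.94, against 412 to 831 for SCARNA in the 6. SNORA made up 39.8% to 56.3% of the small RNA counts in the other 8. Replicates of the ICM group fell on both sides of this difference, and its cause was not tested.

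Each member's mean level in the other 8 libraries was set against its mean in the 6. It was under 1% for 17 members, 1% to 10% for 20, 10% to 50% for 27, and over 50% for 9. SNORA49, in an intron of the chromatin remodeller gene EP400, and SNORA35B had no count at all in the other 8, where 0 counts allow a level of up to 0.0122 CPM (3 counts of all 8 libraries). SNORA74A stood at 0.0990%, SNORA73B at 0.288%, SNORA53 at 0.335% and SNORA73A at 0.390%. At the other end, SNORA92 stood at 120%, SNORA40 at 101%, SNORA104 at 101% and SNORA33, within RPS12, at 93.3%. Of the 10 long members 7 were under 1% (median 0.509%), and of the 63 shorter ones 10 were (median 12.8%). The median was 19.3% for members that overlap an annotated host exon and 5.0% for those in introns only. Without a stated counting mode, reads of host transcripts and of the snoRNA itself cannot be told apart in these counts. Reads set aside as ambiguous between genes made up 2.67% to 9.53% of reads in the 6 libraries and 1.58% to 1.91% in the other 8. EIF4A1, the host of SNORA48 and SNORA67, had 0 CPM in every library. The part of ambiguous reads in the levels of members and hosts was not tested.

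**Figure D3:**
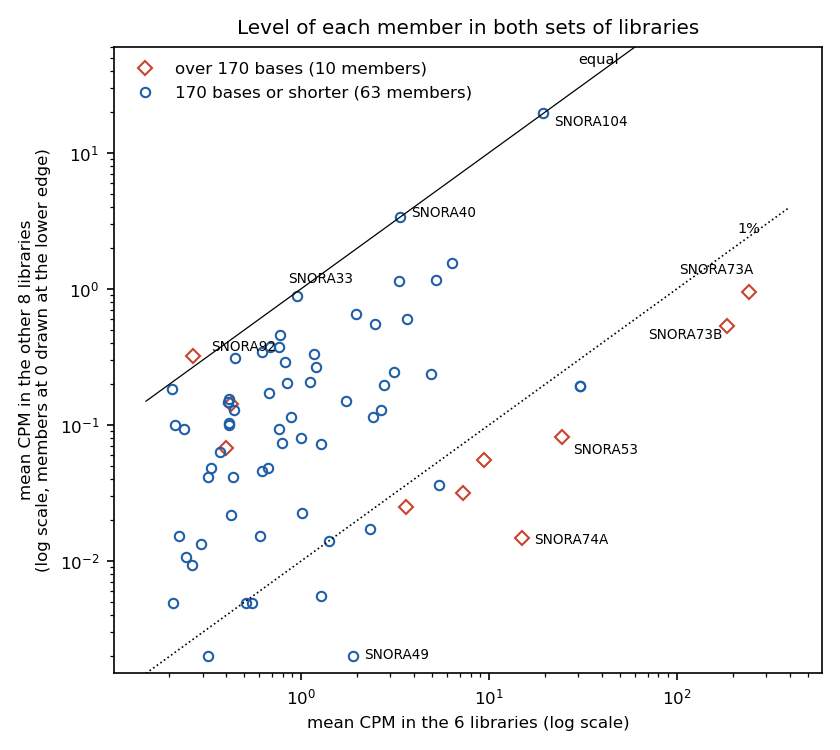
Mean CPM of each of the 73 members in the 6 libraries (x, log axis) and in the other 8 (y, log axis), with diamonds for the 10 members over 170 bases and circles for the 63 others; the lines mark equal levels and 1%. SNORA104, SNORA40 and SNORA33 lie near the line of equality, and SNORA73A, SNORA73B, SNORA53 and SNORA74A lie below 1%.

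SNORA40 illustrates the members present everywhere. It lies in an annotated exon of TAF1D and had 178 and 156 counts in ICM, 174 and 133 in siSRRM2 and 126 and 210 in siBANF1, and 901 counts over the other 8 libraries. The 6 TAF1D members summed to 10.7 to 17.8 CPM in the 6 libraries, and to 7.68 and 9.12 in WT, where TAF1D itself stood at 68.3 and 71.7. The 4 EIF4A2 members, by contrast, summed to 26.3 to 41.6 in the 6 libraries and to 0.417 and 0.165 in WT, although EIF4A2 stood at 359 and 349 CPM in WT.

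To ask whether either knockdown altered the mix of H/ACA RNAs under ICM, each member's share of SNORA counts was tested in a fit to all 17890 genes. No member passed in the comparisons of siSRRM2 with ICM, siBANF1 with ICM or siBANF1 with siSRRM2, at a Benjamini-Hochberg adjusted p under 0.05 in the quasi-likelihood test of edgeR. No gene at all was called in these fits (0% of 17890 genes). At an unadjusted p under 0.05 the counts were 1 (SNORA5C), 0 and 0 of 73 members, against 3.77%, 0.827% and 6.70% of all genes. With the counts scaled by TMM over all genes, 0 members were again called, and 2 (SNORA5C and SNORA104), 0 and 1 (SNORA5C) had an unadjusted p under 0.05, against 5.76%, 0.883% and 7.99% of all genes. DESeq2 also called 0 members in each comparison, with 1, 0 and 1 members at an unadjusted p under 0.05 for the share and 2, 0 and 1 with scaling over all genes. The comparisons with ICM share the same 2 control libraries and are not independent. Replicate numbers were not paired in these tests, so differences between replicates that ICM and siBANF1 had in common stayed in their spread. That spread was estimated with information shared across all genes. Over the genes compared in pairs, SDs of log2 ratios were 1.37 within ICM, 1.41 within siBANF1 and 0.22 within siSRRM2. Over members they were 0.57, 0.70 and 0.43. The part of the other genes' spread in the lack of calls was not tested.

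For siSRRM2 vs ICM the log2 fold change of the share ran from -0.98 to 1.50 over the 32 members with a mean of at least 50 counts, with a median of -0.09 and a median SE of 0.62. The median over all genes on this scale was -0.27, and -0.08 with TMM scaling, where the median of the 73 members was 0.02. Both siSRRM2 libraries lay above both ICM libraries for 15 members (20.5%, against 11.8% of all genes) and below them for 13 (17.8%, against 23.2%). With TMM scaling these counts were 14 (19.2%, against 22.7% of all genes) and 5 (6.85%, against 20.7%), so the members' share on the higher side lay above that of all genes on the first scale and below it on the second. The 5 highest were SNORA5C (1.50), SNORA24 (0.71), SNORA94 (0.65), SNORA28 (0.48) and SNORA53 (0.42). The 5 lowest were SNORA104 (-0.98), SNORA49 (-0.68), SNORA8 (-0.57), SNORA52 (-0.40) and SNORA32 (-0.38). Without the ICM 2 library the value of SNORA32 was 0.61, and without the siSRRM2 2 library that of SNORA52 was 0.09. SNORA24 ran from 0.29 without ICM 1 to 1.30 without ICM 2, and SNORA8 from -0.87 to -0.19 without these same libraries.

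For siBANF1 vs ICM the values ran from -0.79 to 0.66 over the same 32 members, with a median of -0.02 and a median SE of 0.61. The median over all genes was -0.20, and 0.03 with TMM scaling, where that of the 73 members was 0.19. Both siBANF1 libraries lay above both ICM libraries for 11 members (15.1%, against 1.41% of all genes) and below them for 4 (5.48%, against 8.56%). With TMM scaling these counts were 11 (against 6.99%) and 2 (against 7.59%), so the gap to all genes on the higher side was narrower on that scale. Within ICM and siBANF1 the SD of log2 ratios was 1.37 and 1.41 over the genes compared in pairs, and 0.57 and 0.70 over members. The part of this spread in the gap was not tested, and the counts are not read as a rise of members in siBANF1. The highest were SNORA71D (0.66), SNORA28 (0.46), SNORA67 (0.42), SNORA74B (0.40) and SNORA7B (0.39), and the lowest SNORA104 (-0.79), SNORA32 (-0.43), SNORA70 (-0.42), SNORA12 (-0.40) and SNORA68 (-0.30). Several of these values rested on single libraries. Without siBANF1 1 the value of SNORA74B was -0.38, that of SNORA7B -0.04 and that of SNORA28 0.08. Without ICM 2 that of SNORA32 was 0.56 and that of SNORA74B -0.06. Leaving out each library in turn gave 0.28 to 1.02 for SNORA71D, -0.61 to -0.25 for SNORA70, -0.63 to -0.12 for SNORA12 and -0.52 to -0.05 for SNORA68, with no turn of sign.

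For siBANF1 vs siSRRM2 the values ran from -1.28 (SNORA5C) to 0.70 (SNORA7B), with a median of 0.09. Next to SNORA5C were SNORA24 (-0.83), SNORA12 (-0.67), SNORA94 (-0.56) and SNORA53 (-0.42), and next to SNORA7B were SNORA74B (0.66), SNORA49 (0.54), SNORA71D (0.46) and SNORA48 (0.44). Without siBANF1 1 the value of SNORA74B was -0.12, that of SNORA24 -0.29, that of SNORA7B 0.28 and that of SNORA71D 0.08. Without siBANF1 2 that of SNORA24 was -1.72 and that of SNORA94 -0.15, against -1.14 for SNORA94 without siBANF1 1. The groups did not overlap, with siBANF1 higher, for 13 members (17.8%, against 19.2% of all genes) and, with siBANF1 lower, for 12 (16.4%, against 25.7%).

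**Figure D4:**
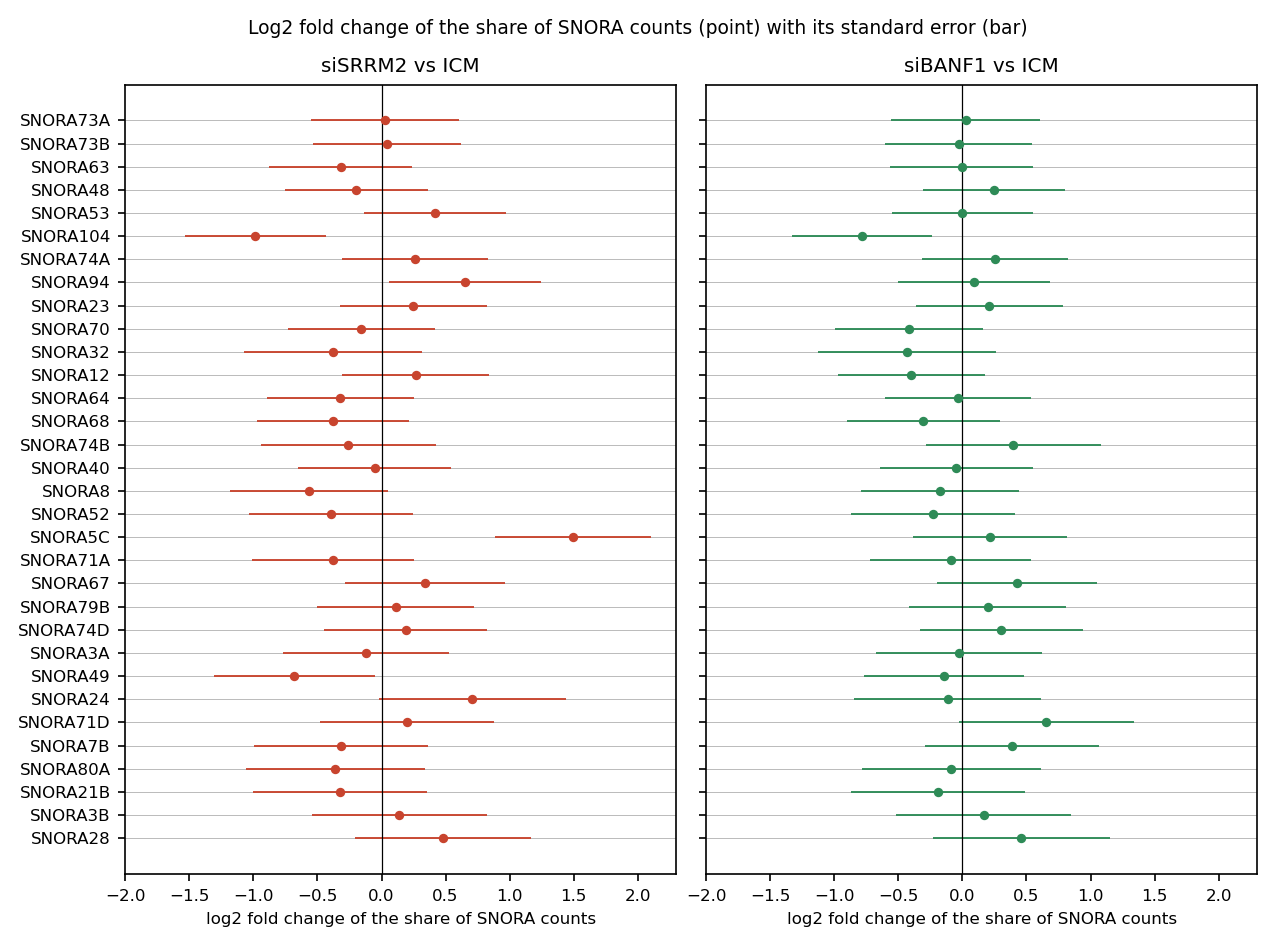
Log2 fold change of the share of SNORA counts (point) with its standard error (bar) for the 32 members with a mean of at least 50 counts, in siSRRM2 vs ICM (left) and siBANF1 vs ICM (right), 2 libraries in each group. SNORA5C at 1.50 on the left and SNORA104 at -0.98 and -0.79 lie farthest from 0, and no value passed the adjusted test.

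SNORA5C, an intronic RNA of TBRG4, was the member whose share differed most between siSRRM2 and ICM. It had 91 and 70 counts in ICM, 196 and 237 in siSRRM2, and 65 and 133 in siBANF1. As a share of SNORA counts this was 0.237% (95% Wilson interval 0.193% to 0.291%) and 0.267% (0.211% to 0.337%) in ICM, 0.675% (0.587% to 0.776%) and 0.747% (0.658% to 0.848%) in siSRRM2, and 0.278% (0.218% to 0.354%) and 0.307% (0.259% to 0.364%) in siBANF1. Both siSRRM2 libraries stood above all 4 others, and the intervals, which cover counting error only, did not meet. The group means were 0.252% ± 0.0207 in ICM, 0.711% ± 0.0511 in siSRRM2 and 0.292% ± 0.0207 in siBANF1 (SD, n = 2 each).

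The share of SNORA5C was 2.82 times as high in siSRRM2 as in ICM (log2 fold change 1.50, SE 0.61, edgeR quasi-likelihood test, Benjamini-Hochberg adjusted p = 1.00). With TMM scaling it was 1.59 (SE 0.43, edgeR adjusted p = 0.811). Between siBANF1 and siSRRM2 it was -1.28 (SE 0.61, edgeR adjusted p = 0.762). The sign was the same whichever library was left out, with values of 1.41 to 1.58 for siSRRM2 vs ICM. For this RNA the difference was larger than the spread within any of the 3 pairs, and it did not pass the test over all genes.

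The neighbouring SNORA5A and the host TBRG4 were set beside it, and the differences between their fold changes were not tested. SNORA5A, also within an intron of TBRG4, had 18 and 14 counts in ICM, 17 and 25 in siSRRM2, and 20 and 28 in siBANF1 (log2 fold change of the share 0.45, SE 0.80, for siSRRM2 vs ICM). TBRG4, which encodes a regulator of mitochondrial RNA, had 41.5 and 121 CPM in ICM, 121 and 123 in siSRRM2, and 38.5 and 103 in siBANF1. With TMM scaling its log2 fold change was 0.63 (SE 0.62) for siSRRM2 vs ICM and -0.79 (SE 0.62) for siBANF1 vs siSRRM2, the signs of SNORA5C on that scale (1.59 and -1.27). ICM 2 matched siSRRM2 in TBRG4 CPM while its SNORA5C level, 1.29 CPM, was the lowest of the 6, against 4.40 and 5.13 in siSRRM2. As a share of SNORA counts, SNORA5C was lowest in ICM 1 instead. ICM 2 also had the lowest SNORA total of the 6 libraries (484 CPM). In the other 8 libraries SNORA5C had 0 to 0.434 CPM.

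Among members with a mean of at least 50 counts, SNORA104 had the lowest fold change of the share in both comparisons with ICM. It held 4.32% and 4.27% of SNORA counts in ICM, 2.34% and 2.00% in siSRRM2, and 2.64% and 2.34% in siBANF1. Both ICM libraries stood above all 4 others. The log2 fold change of the share was -0.98 (SE 0.55, edgeR adjusted p = 1.00) for siSRRM2 and -0.79 (SE 0.55, adjusted p = 1.00) for siBANF1, against the same controls. Comparing same-numbered libraries, the log2 ratios were -0.89 and -1.09 for siSRRM2 over ICM and -0.71 and -0.87 for siBANF1 over ICM.

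Counts of SNORA104 ran alongside those of another gene, the integrin subunit gene ITGB1. In the RefSeq table of GRCh38.p14 SNORA104 lies at chr19:14622213-14622351, and 131 of its 139 bases overlap ITGB1P1, a pseudogene of ITGB1. SNORA104 had 33.9 and 20.7 CPM in ICM, 15.3 and 13.7 in siSRRM2, and 15.7 and 17.4 in siBANF1, while ITGB1 had 2914 and 1542, 1373 and 1346, and 1434 and 1417. Over all 14 libraries the SNORA104 count was 1.02% to 1.64% of the ITGB1 count (median 1.20%). That ratio was 1.16% and 1.34% in ICM 1 and ICM 2 and 1.34% and 1.12% in WT, though SNORA104 was 33.9% to 62.2% of SNORA counts in the other 8 libraries. SNORA104 stood at 10.7 to 31.6 CPM in those 8, where SNORA73A, SNORA53 and SNORA74A were below 1% of their level in the 6. The ITGB1P1 symbol itself had 8 to 65 counts. ITGB1 had log2 fold changes of -0.72 (SE 0.45) and -0.63 (SE 0.45) with TMM scaling in the comparisons with ICM. Reads from the snoRNA, the pseudogene and ITGB1 transcripts cannot be told apart in these counts, so the SNORA104 values are uncertain as a measure of the snoRNA. With SNORA104 taken out of the SNORA total, the SNORA totals were 608 ± 204 (ICM), 655 ± 25.0 (siSRRM2) and 652 ± 105 (siBANF1) CPM (SD, n = 2 each).

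**Figure D5:**
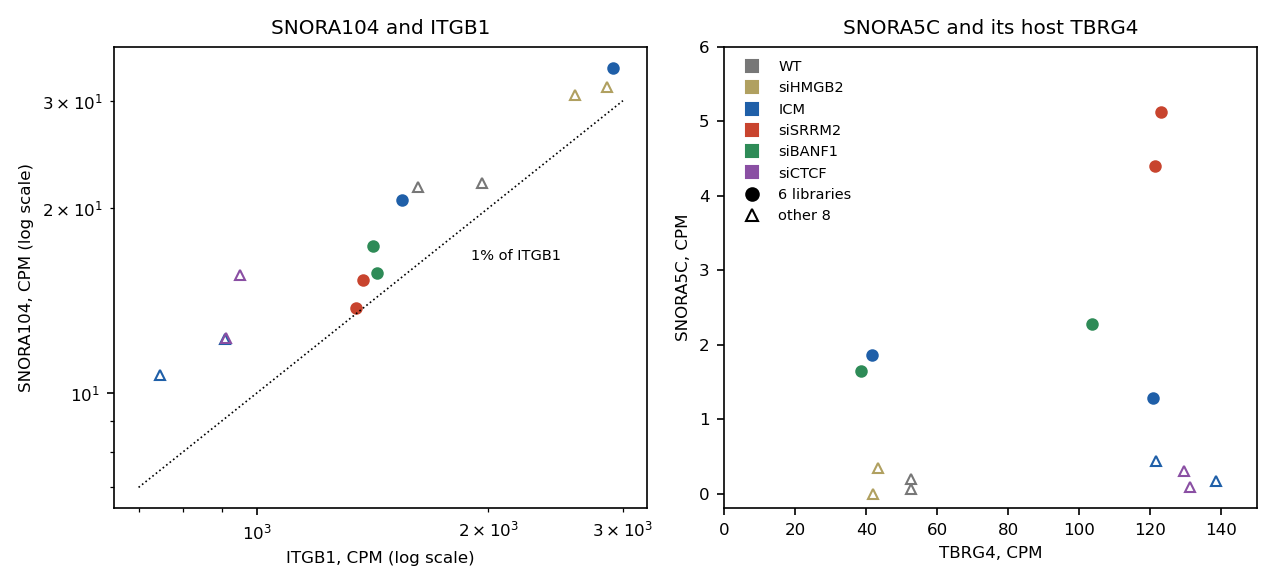
Left, CPM of SNORA104 against ITGB1 in 14 libraries (both axes log), with a dotted line at 1% of ITGB1; right, SNORA5C against its host TBRG4 (linear axes). SNORA104 follows ITGB1 through both sets of libraries at 1.02% to 1.64%, and SNORA5C is highest in the siSRRM2 libraries although ICM 2 and siBANF1 2 have similar TBRG4 levels.

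Several members differed more within a pair of replicates than between group means. SNORA32 held 0.498% of SNORA counts in ICM 1 and 1.48% in ICM 2, 0.599% and 0.917% in siSRRM2, and 0.474% and 0.988% in siBANF1. It was higher in replicate 2 of each group, by log2 ratios of 1.57, 0.61 and 1.06. SNORA74B, in an intron of ATP6V0E1, had the opposite order in ICM (0.714% and 0.327%) and siBANF1 (0.974% and 0.402%) but not in siSRRM2 (0.382% and 0.489%). SNORA24, in the noncoding host SNHG8, guides pseudouridines of the small ribosomal subunit and held 0.149% and 0.301% in ICM, 0.324% and 0.410% in siSRRM2, and 0.111% and 0.300% in siBANF1. In siSRRM2 the largest replicate differences were those of SNORA52 in RPLP2 (0.592% and 0.252%) and SNORA67 in EIF4A1 (0.485% and 0.306%). In siBANF1, SNORA80B in the ornithine decarboxylase gene ODC1 stood at 0.329% and 0.136%. None of these members passed the test in any comparison.

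SNORA13, named here for its known link to p53 activity in senescence and not for its values, had few reads. It lies in an intron of the noncoding gene EPB41L4A-AS1 and had 20 and 25 counts in ICM, 18 and 18 in siSRRM2, and 15 and 26 in siBANF1. Its log2 fold changes of the share were -0.30 (SE 0.81) and -0.24 (SE 0.81) in the comparisons with ICM.

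Values of members were set beside those of their hosts. Among the 28 members with a mean of at least 50 counts whose host was tested too, 16 had the sign of their host's log2 fold change for siSRRM2 vs ICM, 17 for siBANF1 vs ICM and 16 for siBANF1 vs siSRRM2, with TMM scaling for both. The SNORA73 pair lies within SNHG3 and also within the longer RCC1 on the same strand, and only SNHG3 was taken as host. SNHG3 had 17.7 and 23.4 CPM in ICM, 36.2 and 35.7 in siSRRM2, and 24.5 and 32.1 in siBANF1. Its log2 fold change for siSRRM2 vs ICM was 0.82 (SE 0.27, edgeR adjusted p = 0.854), and that of SNORA73A was 0.09 (SE 0.38). SNHG4, taken as host of SNORA74A although MATR3 spans it too, had 1.46 (SE 0.48, edgeR adjusted p = 1.00) for siBANF1 vs ICM, where SNORA74A had 0.26 (SE 0.49). The level of SNHG4 was low, at 1.19 and 1.31 CPM in ICM and 4.21 and 2.44 in siBANF1.

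The genes of the H/ACA particle and its assembly were measured in the same libraries. None of 11 passed in any comparison (edgeR, adjusted p), and 0, 0 and 1 had an unadjusted p under 0.05 for siSRRM2 vs ICM, siBANF1 vs ICM and siBANF1 vs siSRRM2. DESeq2 also called 0 of 11, with 0, 0 and 1 at an unadjusted p under 0.05. Their median log2 fold changes were 0.23, 0.21 and -0.32, against -0.08, 0.03 and 0.07 over all genes. DKC1, the pseudouridine synthase, had 22.5 and 91.7 CPM in ICM, 67.0 and 62.2 in siSRRM2, and 33.7 and 110 in siBANF1, so it was lower in replicate 1 of ICM and siBANF1. NHP2 (37.7 and 91.8 in ICM, 95.7 and 98.6 in siSRRM2, 37.6 and 98.9 in siBANF1) and NOP10 (79.1 and 199, 197 and 200, 73.7 and 210), both core proteins, showed that same split by replicate. GAR1, the remaining core protein, had 1.95 and 8.57, 3.44 and 3.74, and 3.42 and 8.41.

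NAF1, which GAR1 replaces as the particle matures, had the lowest fold change of the 11 genes for siSRRM2 vs ICM and the highest for siBANF1 vs siSRRM2. It stood at 15.9 and 10.9 CPM in ICM, 5.37 and 5.50 in siSRRM2, and 31.9 and 10.2 in siBANF1. Its log2 fold change was -1.30 (SE 0.63, edgeR adjusted p = 0.854) for siSRRM2 vs ICM and 2.01 (SE 0.65, adjusted p = 0.613) for siBANF1 vs siSRRM2. The assembly ATPases RUVBL1 and RUVBL2 had log2 fold changes of 1.18 (SE 0.52) and 0.78 (SE 0.50) for siSRRM2 vs ICM, and 0.41 (SE 0.52) and 0.22 (SE 0.50) for siBANF1 vs ICM. For siSRRM2 vs ICM the dyskerin chaperone SHQ1 had -0.04 (SE 0.39), the nucleolar chaperone NOLC1 0.21 (SE 0.75), the Cajal body scaffold COIL -0.15 (SE 0.86) and the Cajal body protein WRAP53 0.50 (SE 0.53).

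Of the C/D particle genes 7 of 9 were tested, of the genes for trimming and decay of small RNA ends 22 of 23, and of the RNA polymerase I and nucleolar genes 35 of 36. None of these was called in any of the 3 comparisons by edgeR or DESeq2, and none had an unadjusted p under 0.05 in edgeR. For siSRRM2 vs ICM the medians were 0.14, -0.09 and 0.01, for siBANF1 vs ICM 0.10, 0.03 and 0.26, and for siBANF1 vs siSRRM2 0.03, 0.11 and 0.23. Of the RNA polymerase I and nucleolar genes 21, 29 and 27 of 35 lay above 0 in these comparisons, against 45%, 53.4% and 53.9% of all genes.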

How the data were processed

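RNA was sequenced in 14 libraries titled as IMR90, of which 6 were compared (2 per group). Each library has its own deposited table, which lists raw counts for every gene symbol. The submitters' processing notes name STAR 2.7.3a, HTSeq 0.12.4, DESeq2 1.36.0 and the build hg38, with no role or order. The annotation release, the counting mode and the strand setting are not given in the sources used here. Per the labels' protocols, total RNA was taken up in Trizol, treated with DNase on a column, made into TruSeq libraries and sequenced in pairs. The 5 lines for reads given to no gene, which held 26.5% to 41.8% of reads in the 6 libraries and 12.8% to 18.0% in the other 8, were left out.

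Counts of genes kept by filterByExpr (17890, all 73 members among them) were fitted with edgeR 4.0.16 in R 4.3.3 over the 6 libraries, 1 mean per group, 3 residual degrees of freedom. The library size was the total SNORA count for shares, or the total gene count with TMM scaling. Genes with a Benjamini-Hochberg adjusted p under 0.05 were called. Tested on simulated data with the share fit, a 4-fold difference was recovered in 73% of changed genes for siSRRM2 vs ICM (17551 genes run) and 84% for siBANF1 vs ICM (17528 genes run), and a 2-fold difference in 1% and 10%. With TMM scaling these were 95% and 90%, and 13% and 17%. Apart from the changed genes, all simulated libraries had a common mean and a fixed dispersion (spread between libraries) of 0.05. They lack the wide differences between replicates seen in ICM and siBANF1, so these rates do not measure the power of the fits to the real libraries.

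Named members were the 10 highest per 100 bases, the 5 highest and 5 lowest fold changes in each comparison at a mean of at least 50 counts, those nearest the limit of 60 counts, and the 3 largest differences within each replicate pair. The members and gene lists were chosen with earlier results of these data known. SNORA33, SNORA35B, SNORA40, SNORA92, SNORA66 and the members named as closest in sequence, in lists or as neighbours were singled out after their values were seen. Hosts are the shortest gene of GENCODE v29 on the same strand that spans a member, and lengths are those of RefSeq on GRCh38.p14, in which all 73 members had an entry. Alternatives were DESeq2 1.42.0, no low-count filter, a replicate block, fits to 4 or 14 libraries, other scalings and thresholds, and leaving out each library. Tables and plots were made in Python 3.11.15 (scipy 1.17.1, matplotlib 3.10.9, pandas 2.3.3, numpy 2.4.6).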

Additional observations from a re-analysis of the deposited data

How the results depend on the processing

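The count of members called was 0 in each comparison under every alternative run, and so was that of the 4 gene lists. Over all genes, DESeq2 called 33, 0 and 178 of 17890 for the share and 123, 0 and 265 with scaling over all genes (siSRRM2 vs ICM, siBANF1 vs ICM, siBANF1 vs siSRRM2), where edgeR called 0. Taking SNORA104 out of the SNORA total was an alternative added after the data were seen. Replicate numbers were not taken as pairs: deviations of same-numbered libraries from their group means correlated at -0.002 between ICM and siSRRM2, 0.809 between ICM and siBANF1 and 0.007 between siSRRM2 and siBANF1, over 17890 genes. With the replicate block 0 members were called, 32, 0 and 152 genes were called for the share and 0 with TMM scaling, and the value of SNORA5C for siSRRM2 vs ICM was 1.50. That block gave all groups the same replicate effect, and no fit paired siBANF1 with ICM alone. The lack of calls for siBANF1 vs ICM thus does not show what a paired test of these groups would give.

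Signs turned when 1 library was left out, and the cause was not tested. The log2 ratio of total SNORA CPM ranged from -0.23 to 0.47 for siSRRM2 vs ICM, -0.23 to 0.47 for siBANF1 vs ICM and -0.17 to 0.15 for siBANF1 vs siSRRM2. For shares, SNORA52 ranged from -1.14 to 0.0917 and SNORA32 from -0.97 to 0.61 (siSRRM2 vs ICM), SNORA32 from -1.06 to 0.56, SNORA74B from -0.38 to 1.07 and SNORA7B from -0.0352 to 0.72 (siBANF1 vs ICM), and SNORA74B from -0.12 to 1.16 (siBANF1 vs siSRRM2). Where a group is left with 1 library, that library is assumed to vary like the other groups. In simulated data a 2-fold difference was recovered in 1% to 17% of changed genes, with 2 libraries per group. Those data lack the wide differences between replicates of ICM and siBANF1.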
